A study of Homo sapiens with 2 samples.

Results

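The genes described here are 33 genes of cholesterol and fatty acid metabolism, named by a list of gene symbols, out of 21743 genes that could be named on the array through a RefSeq accession. They comprise 7 genes of the mevalonate pathway, 11 genes from squalene to cholesterol, 5 genes that regulate the pathway, 3 genes of sterol transport and efflux, and 7 genes of fatty acid synthesis. All 33 were well above background on both arrays. They were measured in MRC-5 cells, a widely used fibroblast line of human fetal lung, to learn which genes are expressed depending on periostin, a matricellular protein that fibroblasts secrete. Total RNA of 1 culture transfected with control siRNA and of 1 culture transfected with periostin siRNA was hybridized to 1 single-colour Agilent array each. The periostin siRNA was used at 10 nM for 48 h, and the dose and time of the control siRNA for the array are not given in the sources used here. With 1 array per condition no test between the conditions was possible, no p-value is given, and a difference between the conditions cannot be told apart from a difference between cultures.

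Cholesterol is built from acetyl-CoA through mevalonate, squalene and lanosterol, and fatty acids are built from the same acetyl-CoA by a separate set of enzymes. Most of these enzymes are transcribed under the SREBP factors, which SCAP carries out of the endoplasmic reticulum when sterols are scarce and which the INSIG proteins hold back when sterols are plentiful. Surplus sterol activates the LXR receptors, which raise the transporters that export cholesterol. Proliferating fibroblasts use this pathway to make membrane.

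The values are signals, that is, background-subtracted brightness scaled so that the 75th percentile of the spots is 377 on both arrays, and log2 ratios, in which a value below 0 means a lower signal on the periostin siRNA array. A probe printed once has the error that the scanner software propagates, which was between 0.20 and 0.21 on the log2 scale for the 33 genes, and a probe printed 10 times has the SD over its spots. Among 515 probes printed 10 times with signals in the range of the 33 genes, the pooled SD of the log2 ratio between spots was 0.07, below the propagated error. Both errors cover the spots of 1 slide alone. The signal was well above background for 58.0% and 58.9% of 58717 spots with control siRNA and periostin siRNA, and no spot was saturated. POSTN, the targeted gene, had a signal of 2638 under control siRNA, against 280 under periostin siRNA, and its log2 ratio was -3.24 ± 0.20. Of the fibroblast markers, 7 of 7 were well above background on both arrays, with a summed signal of 349230 and 312769. Of the epithelial markers 3 of 4 were well above background on both arrays, with a summed signal of all 4 of 237 with control siRNA and 532 with periostin siRNA, and CDH1 was not well above background on either. EPCAM, the most different of them, was dim at 34.6 and 135, and KRT19, the brightest, was at 167 and 342. All 3 measured epithelial markers were higher with periostin siRNA by more than 2 propagated errors, beside 22.6% of all measured genes. Of the endothelial markers 2 of 3 were above background on both arrays, with sums of 124 and 128. Of the immune markers 2 of 4 were above background with control siRNA and 3 with periostin siRNA, with sums of 1551 and 2494, nearly all of it CD68, whereas LAPTM5 was not well above background on either. The part of such differences in the results below was not tested.

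The promoters of the 3 genes past 2-fold that have an entry in the RefSeq promoter table are shown together with that of SREBF2, the gene of the main SREBP factor of sterol synthesis. SREBF2 was added because it alone among the 28 promoters found here held an exact match to the core of a sterol regulatory element within the stretch searched. Each is the 250 bases before the gene's RefSeq start on GRCh38.p14, read 5′ to 3′ on the gene's strand. INSIG1 lies at chr7:155297628-155297877 on the plus strand, CYP51A1 at chr7:92134478-92134727 on the minus strand, TM7SF2 at chr11:65111622-65111871 on the plus strand and SREBF2 at chr22:41832855-41833104 on the plus strand. Capitals mark TCACNCCAC, the core of the sterol regulatory element, CCAAT, the letters read by NF-Y, and GGGCGG, the GC box read by Sp1, each on either strand, and in INSIG1 a pair of GC boxes overlap.
INSIG1: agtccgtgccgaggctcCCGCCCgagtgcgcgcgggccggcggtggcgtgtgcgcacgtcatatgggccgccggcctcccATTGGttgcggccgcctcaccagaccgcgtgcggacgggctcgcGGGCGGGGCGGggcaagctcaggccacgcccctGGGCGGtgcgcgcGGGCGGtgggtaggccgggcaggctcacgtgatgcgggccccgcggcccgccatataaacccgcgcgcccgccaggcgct
CYP51A1: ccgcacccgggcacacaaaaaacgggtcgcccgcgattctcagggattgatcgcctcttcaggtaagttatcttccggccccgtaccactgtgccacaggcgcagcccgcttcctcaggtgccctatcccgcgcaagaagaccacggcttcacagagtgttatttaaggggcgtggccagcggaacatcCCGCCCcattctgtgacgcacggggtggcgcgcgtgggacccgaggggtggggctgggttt
TM7SF2: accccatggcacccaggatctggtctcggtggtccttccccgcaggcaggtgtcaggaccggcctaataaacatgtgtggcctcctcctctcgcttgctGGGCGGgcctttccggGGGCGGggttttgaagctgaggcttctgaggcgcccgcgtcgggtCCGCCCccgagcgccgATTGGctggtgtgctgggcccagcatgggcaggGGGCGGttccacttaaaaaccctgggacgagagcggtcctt
SREBF2: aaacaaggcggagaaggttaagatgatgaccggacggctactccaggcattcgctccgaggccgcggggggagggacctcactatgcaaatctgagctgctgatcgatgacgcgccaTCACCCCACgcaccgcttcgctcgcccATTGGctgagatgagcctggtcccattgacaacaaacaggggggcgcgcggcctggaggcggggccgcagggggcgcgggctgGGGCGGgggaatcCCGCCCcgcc

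Of the 28 genes with an entry, 1 held TCACNCCAC in this window, against 0.875% of 27305 promoters in the table and 0.838% of the 12407 promoters of genes measured here. CCAAT was found in 17 of the 28, or 60.7%, against 34.5% of the 12407 promoters of genes measured here. GGGCGG was found in 26 of the 28, or 92.9%, against 62.2% of those. CYP51A1 held 1 GC box and neither of the other motifs, whereas INSIG1 held 5 GC boxes and 1 CCAAT, and TM7SF2 held 4 GC boxes and 1 CCAAT. ACAT2, FDFT1, SQLE, ABCG1 and FASN had no entry. These are exact matches of letters within 250 bases. Variant or more distant elements were not searched for, so a gene without a match here may still have one.

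Between the arrays, 3 of the 33 genes were lower by more than 2-fold with periostin siRNA and 1 was higher. Those lower were INSIG1, the feedback protein that retains SCAP, SQLE, which epoxidizes squalene, and CYP51A1, which demethylates lanosterol, and the one higher was TM7SF2, a sterol reductase that acts next in the pathway. The 3 lower genes made up 9.09% of the 33, and 6.42% of 16052 measured genes were lower by more than 2-fold. The 1 higher gene made up 3.03%, and 7.97% of all measured genes were higher by more than 2-fold. Among the 10305 genes whose mean signal lay within the range of the 33, from 124 to 20400, these shares were 5.35% and 5.07%. In either direction 4 of the 33 genes passed 2-fold, beside 14.4% of all measured genes and 10.4% of those in the signal range, so the share past 2-fold did not stand apart from the array at large. The median log2 ratio of the 33 genes was -0.14 and that of all measured genes was 0.06. Ratios below 0 were found in 21 of the 33 genes, or 63.6%, and in 45.5% of all measured genes. In a bulk RNA sample, fewer cells that express a gene and less of its RNA per cell cannot be told apart.

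**Figure D1:**
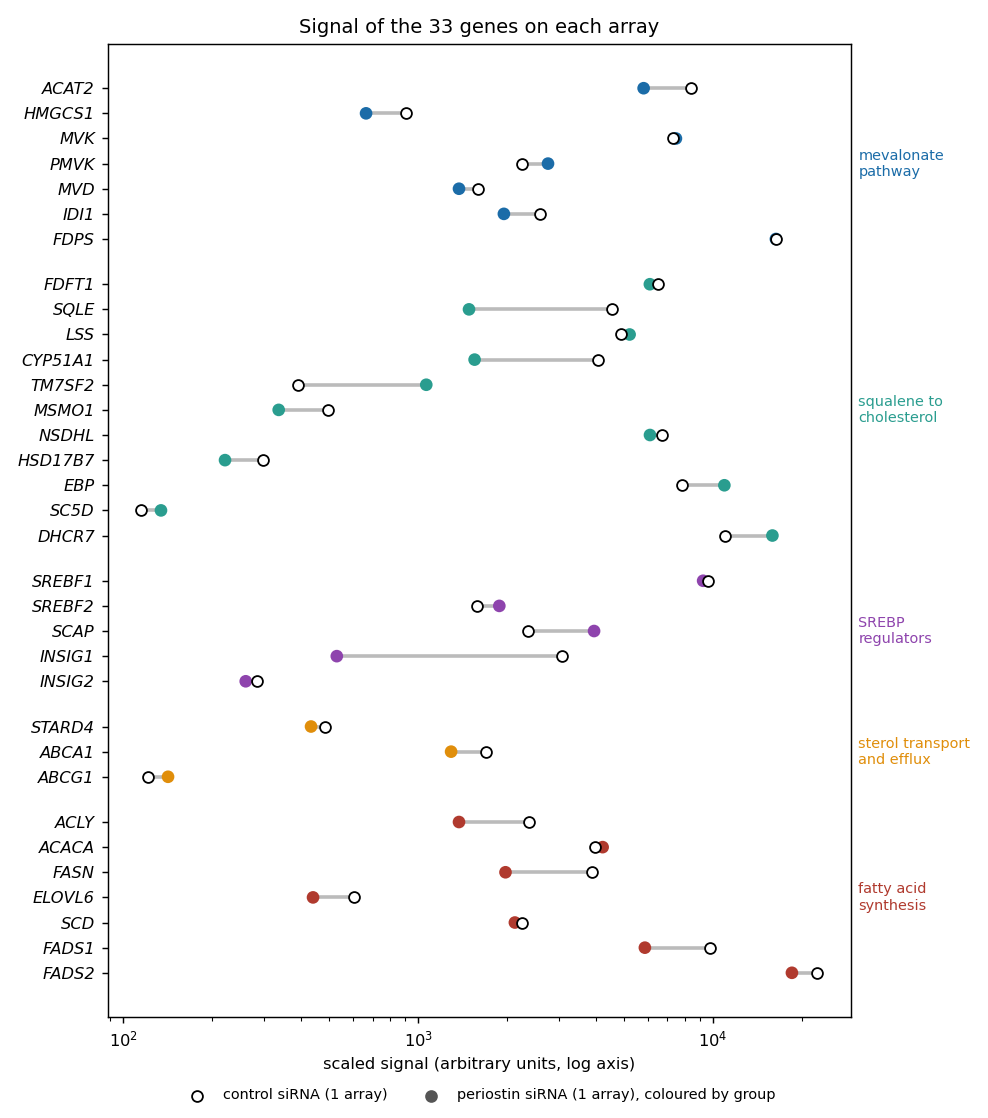
The scaled signal of each of the 33 genes on the control siRNA array (open circles) and the periostin siRNA array (filled circles, coloured by group) is plotted on a log axis, with 1 array per condition and a grey line joining both values of a gene. The longest lines are those of INSIG1, SQLE and CYP51A1, which run to lower signals with periostin siRNA, and of TM7SF2, which runs to a higher one.

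Each gene was then set against the other genes of like signal, those whose mean log2 signal over both arrays lay within 0.5 of its own. INSIG1 had 1787 such neighbours, of which 3.58% were lower by more than 2-fold. SQLE had 1412, with 4.32% lower, and CYP51A1 had 1450, with 4.28% lower. TM7SF2 had 2062, with 5.29% higher by more than 2-fold. Below the 10th percentile of their neighbours, where 10% of genes lie by construction, were 6 of the 33 genes, namely SQLE, CYP51A1, INSIG1, ACLY, FASN and FADS1. Above the 90th percentile were TM7SF2 and SCAP. By branch, 3 of the 7 fatty acid genes and 2 of the 18 sterol synthesis enzymes lay below the 10th percentile.

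**Figure D2:**
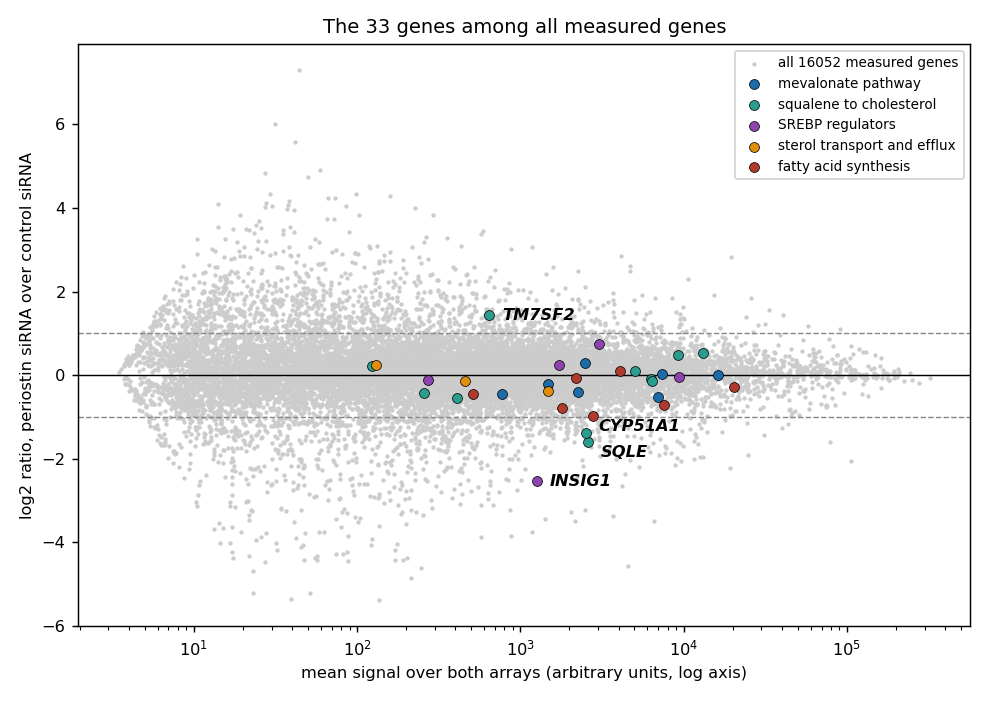
The log2 ratio (periostin siRNA over control siRNA) is plotted against the mean signal over both arrays (log axis) for 16052 measured genes in grey, with the 33 genes coloured by group and dashed lines at 2-fold. INSIG1 at -2.53, SQLE at -1.61 and CYP51A1 at -1.39 lie below the lower line and TM7SF2 at 1.45 above the upper one, while the others lie between the lines.

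In the mevalonate pathway, which leads from acetyl-CoA to farnesyl diphosphate, 0 of 7 genes passed 2-fold and the median log2 ratio was -0.21. ACAT2, the cytosolic thiolase that joins the first acetyl-CoA units, had a signal of 8424 under control siRNA, against 5810 under periostin siRNA, and a log2 ratio of -0.54 ± 0.20 (propagated error of 1 spot, as for the following values unless stated). HMGCS1, which makes HMG-CoA, went from 907 to 665, a log2 ratio of -0.45 ± 0.20. IDI1, the isomerase that makes dimethylallyl diphosphate, went from 2590 to 1952, at -0.41 ± 0.20. These 3 genes were lower by more than 2 propagated errors, beside 17.7% of all measured genes, but HMGCS1 and IDI1 came within 2 errors under the normexp background correction and without scaling. MVD, the decarboxylase of the pathway, gave -0.21, from 1591 to 1375, and PMVK, the kinase before it, gave 0.29, from 2252 to 2754, both within 2 errors. MVK, mevalonate kinase, was at 7322 and 7477, and FDPS, which makes farnesyl diphosphate, was at 16278 and 16319. The log2 ratios of MVK and FDPS, 0.03 and 0.0037, changed sign when the arrays were scaled on the median. By size of the ratio, the kinases and FDPS thus lay closer to 0 than the enzymes at the entry, ACAT2 and HMGCS1.

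From squalene to cholesterol the genes went both ways, with 2 of 11 lower and 1 higher by more than 2-fold and a median log2 ratio of -0.10. FDFT1, squalene synthase, was at 6525 and 6101, a log2 ratio of -0.10 within its error. SQLE, one of the rate-controlling enzymes of sterol synthesis, had signals of 4522 and 1486, a log2 ratio of -1.61 ± 0.20 or 3.04-fold lower. LSS, which cyclizes the epoxide to lanosterol, was at 4852 and 5208, a ratio of 0.10 that changed sign under median scaling, and a dimmer probe for LSS, at 260 and 383, gave 0.56. CYP51A1 went from 4080 to 1553, a log2 ratio of -1.39 ± 0.20 or 2.63-fold lower. CYP51A1 has processed pseudogenes, and whether its 1 probe tells them apart was not tested. LSS, whose brightest probe was within its spot error, thus lies in the pathway between SQLE and CYP51A1, the lowest of these 11 genes.

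TM7SF2, which reduces the sterol double bond that CYP51A1 leaves behind, was measured by 10 spots. Its signal ran from 348 to 432 with a median of 392 on the control siRNA array, and from 953 to 1161 with a median of 1070 on the periostin siRNA array. No spot of the control siRNA array reached the lowest spot of the periostin siRNA array, which also held for 30.1% of 667 probes printed 10 times and for 30.1% of the 515 in the signal range of the 33 genes. The log2 ratio was 1.45 ± 0.06 (SD over 10 spots), or 2.73-fold higher. MSMO1, the sterol methyl oxidase of the next step, was also printed 10 times, and its signal ran from 469 to 520 (median 498) with control siRNA and from 316 to 381 (median 329) with periostin siRNA. Its spots did not overlap either, in the opposite direction, as for 34.9% of the 667 probes and 37.7% of the 515, and the log2 ratio was -0.56 ± 0.11 (SD over 10 spots). HSD17B7, the ketoreductase that completes demethylation, had 3 probes with log2 ratios of -0.43, -0.63 and -0.50, the middle one over 10 spots with an SD of 0.16. Those 10 spots ran from 223 to 274 with control siRNA and from 140 to 179 with periostin siRNA, so all 3 probes were lower and the spots did not overlap. The gene has a close transcribed copy, HSD17B7P2, which these probes may not tell apart.

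**Figure D3:**
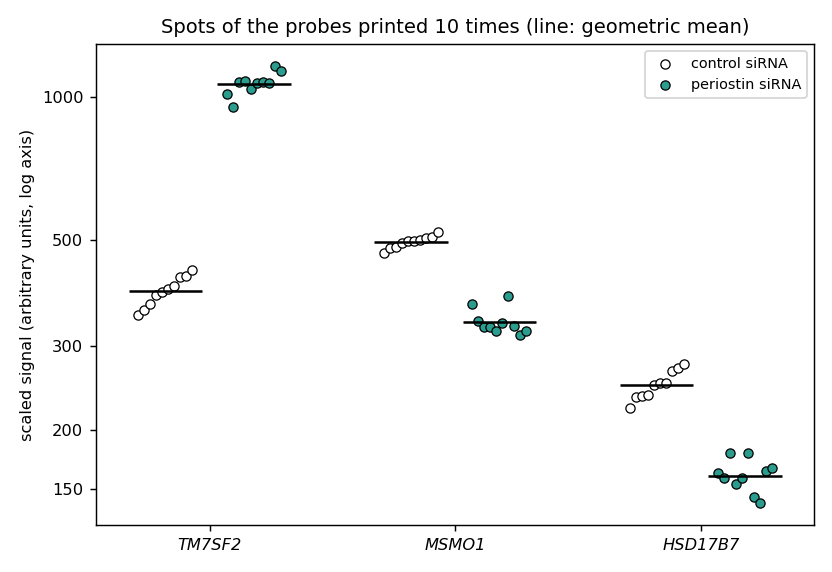
Each point is 1 spot of a probe printed 10 times, for TM7SF2, MSMO1 and HSD17B7, with control siRNA in open and periostin siRNA in filled circles, spots in the order of their control siRNA signal, and the scaled signal on a log axis (lines are geometric means). For each gene the spots of both arrays do not overlap, with TM7SF2 higher (as for 30.1% of 667 such probes) and MSMO1 and HSD17B7 lower (as for 34.9%) on the periostin siRNA array; for HSD17B7 this is not the brightest of its 3 probes.

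NSDHL, the sterol dehydrogenase that works with MSMO1, gave -0.14, from 6727 to 6106, within its error. The last enzymes of the route were higher or near their control value. EBP, the sterol isomerase, went from 7810 to 10914, a log2 ratio of 0.48 ± 0.20. DHCR7, the reductase that makes cholesterol in a final step, went from 10964 to 15881, at 0.53 ± 0.20. Both were higher by more than 2 propagated errors, but under scaling on the median, at 0.35 and 0.41, they came within them. SC5D, the desaturase between them, was dim at 115 and 134 and gave 0.22 within 2 errors. Thus MSMO1 and HSD17B7 in the middle of the route were lower and EBP and DHCR7 near its end were higher. By its brightest probe each of these genes lay between the 10th and 90th percentiles of its neighbours of like signal, within the ordinary spread of the array. The 18 sterol synthesis enzymes together, with a median of -0.12, did not lie on one side of 0. Of these 18, 7 were lower and 3 higher by more than 2 propagated errors, and among all measured genes 17.7% were lower and 22.6% higher by that measure. The 7 lower became 4 under normexp and without scaling, where HMGCS1, IDI1 and HSD17B7 came within 2 errors. The 3 higher became 1, TM7SF2, under scaling on the median.

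**Figure D4:**
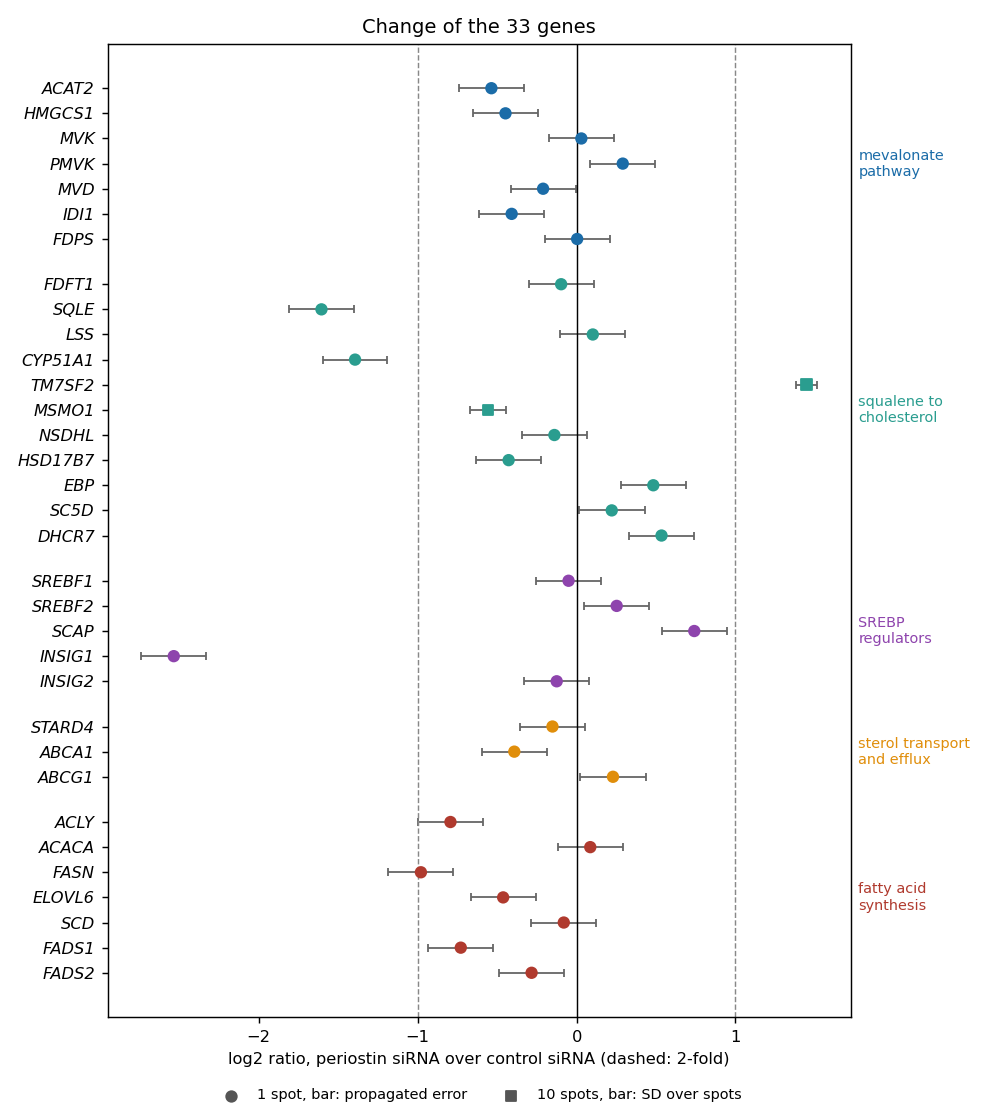
The log2 ratio (periostin siRNA over control siRNA) is plotted for each of the 33 genes by group (circles are probes with 1 spot and their propagated error, squares are probes with 10 spots and the SD over spots, and dashed lines mark 2-fold). INSIG1 at -2.53 is the lowest and TM7SF2 at 1.45 the highest, and 6 of the 7 fatty acid genes lie below 0.

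The 5 regulators of the pathway lay on both sides of 0, with a median log2 ratio of -0.05 and 1 lower by more than 2-fold. INSIG1, itself a target of the SREBP factors, had a signal of 3068 under control siRNA, against 529 under periostin siRNA. Its log2 ratio of -2.53 ± 0.20, or 5.79-fold lower, was the lowest of the 33 genes and rests on 1 spot without an outlier flag. INSIG2, the related retention protein that is not controlled in the same way, was at 284 and 260, a log2 ratio of -0.12 by its brightest probe and 0.05 by its second, a difference within the spot error whose sign changed under the background correction with normexp. SCAP, the escort of the SREBP factors, went from 2362 to 3946, a log2 ratio of 0.74 ± 0.20. SREBF2, the gene of the factor that chiefly drives sterol synthesis, gave 0.25, from 1581 to 1883, within 2 errors. SREBF1, whose product chiefly drives fatty acid synthesis, was at 9575 and 9246, a ratio of -0.05, and its dimmer probe gave 0.29. The mRNA of the factors themselves thus differed by less than 2 propagated errors between the arrays, whereas the ratio of INSIG1 lay farther from 0 than that of any of the enzymes.

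The 3 genes of sterol transport and efflux lay within 2 propagated errors of 0, although ABCA1 passed them under scaling on the median, at -0.52, and after loess. STARD4, which carries cholesterol between membranes and is a target of the SREBP factors, was at 481 and 433, a log2 ratio of -0.15. ABCA1, the LXR target that exports cholesterol to lipid-poor apolipoprotein, went from 1696 to 1292 by its brightest probe, at -0.39, but from 96.9 to 115 by a dim one, at 0.25. ABCG1, which exports cholesterol to mature particles, was at 121 and 142, a log2 ratio of 0.23. For ABCA1 the direction thus depended on the probe, and ABCG1 differed by less than 2 propagated errors.

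Of the fatty acid genes 6 of 7 had a ratio below 0, beside 45.5% of all measured genes, with a median log2 ratio of -0.46, and 0 passed 2-fold. FASN, the fatty acid synthase, was the lowest, from 3896 to 1976, a log2 ratio of -0.98 ± 0.20 or 1.97-fold lower. It passed 2-fold under median scaling, at -1.11, and after loess. ACLY, which makes acetyl-CoA from citrate in the cytosol, went from 2383 to 1375, a log2 ratio of -0.79 ± 0.20. FADS1, a fatty acid desaturase of the polyunsaturated route, went from 9723 to 5868, at -0.73 ± 0.20. ELOVL6, which lengthens palmitate, went from 606 to 440, at -0.46 ± 0.20. These 4 of the 7 genes were lower by more than 2 propagated errors, beside 17.7% of all measured genes. FADS2, the desaturase that precedes FADS1 in that route, was the brightest of the 33 by mean signal, at 22502 and 18494, a ratio of -0.28 within 2 errors, which became -0.41 and passed them under scaling on the median. SCD, which makes oleate, was at 2249 and 2127, a ratio of -0.08. ACACA, the carboxylase of the committed step, was at 3974 and 4219, a ratio of 0.09 that changed sign under median scaling. The enzymes on either side of the carboxylase, ACLY and FASN, thus had the lowest ratios of this branch while the carboxylase itself differed by less than its spot error.

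Set side by side, the medians were -0.21 for the mevalonate pathway, -0.10 from squalene to cholesterol, -0.05 for the regulators, -0.15 for transport and efflux and -0.46 for fatty acid synthesis, beside 0.06 for all measured genes. The fatty acid branch had the lowest median with none of its genes past 2-fold, and the sterol branch held SQLE and CYP51A1 at one end and TM7SF2 at the other. Whether the branches differ could not be tested with 1 array per condition.

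Other genes of lipid metabolism were taken from 5 further lists with 45 genes, of which 44 could be measured. Of these 44, 5 were lower and 0 higher by more than 2-fold, against 6.42% and 7.97% of all measured genes, and their median log2 ratio was 0.04. In the list of lipoprotein uptake and lysosomal release 3 of 9 genes were lower. LRP8, a lipoprotein receptor of the same family as VLDLR, went from 381 to 107, a log2 ratio of -1.83 ± 0.21. NPC1, which passes cholesterol out of lysosomes, went from 1407 to 545, at -1.37 ± 0.07 (SD over 10 spots). SOAT1, which esterifies cholesterol for storage, went from 411 to 164, at -1.33 ± 0.20, and fell just short of 2-fold under the normexp correction. NPC2, the soluble partner of NPC1, lay in the other direction, from 27989 to 54020, a log2 ratio of 0.95 ± 0.20. The partners NPC1 and NPC2 thus lay on opposite sides of 0.

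Among the LXR and oxysterol genes 1 of 7 measured was lower by more than 2-fold. It was CH25H, which hydroxylates cholesterol to an oxysterol that restrains SREBP processing, at a dim 41.1 and 17.6, a log2 ratio of -1.22 ± 0.25 that was -0.47 under the normexp correction. LPCAT3, an LXR target that remodels phospholipids, was the highest of this list at 0.54, and CYP7B1 was not well above background on either array. Of the other fatty acid genes 1 of 14 passed 2-fold, ACSL3, an acyl-CoA synthetase of lipid droplets, which went from 1803 to 444, a log2 ratio of -2.02 ± 0.20 or 4.06-fold lower. ME1, which supplies NADPH, and MID1IP1, which activates the carboxylase, came close to 2-fold, with log2 ratios of -0.97 and -0.92. The list as a whole had a median log2 ratio of 0.04, beside 0.06 for all measured genes. Of its 14 genes 9 lay above 0 and 5, or 35.7%, below 0, beside 45.5% of all measured genes below 0. By more than 2 propagated errors, 4 of the 14 were lower and 2 higher, beside 17.7% and 22.6% of all measured genes. The 2 higher were HACD3 at 0.62 and TECR at 0.46. In the isoprenoid branch, which leads from mevalonate to prenyl groups and ubiquinone, 0 of 8 genes passed 2-fold. By their brightest probes they ran from COQ2 at -0.53 to FNTB at 0.73. Dimmer probes of PDSS2 and PDSS1 gave -0.68 and -0.64. For PDSS2 the brightest probe gave 0.17, and the mean over its probes was -0.25. Of the further genes linked to the transport, cleavage or control of the SREBP factors 0 of 6 passed 2-fold, from ERLIN1 at -0.32 to ERLIN2 at 0.10. By their brightest probes all 6 lay within 2 propagated errors of 0. A dim probe of ERLIN2, at 18.6 and 36.7, gave 0.98 ± 0.25, and under scaling on the median MBTPS1 and ERLIN1 were lower by more than 2 errors.

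**Figure D5:**
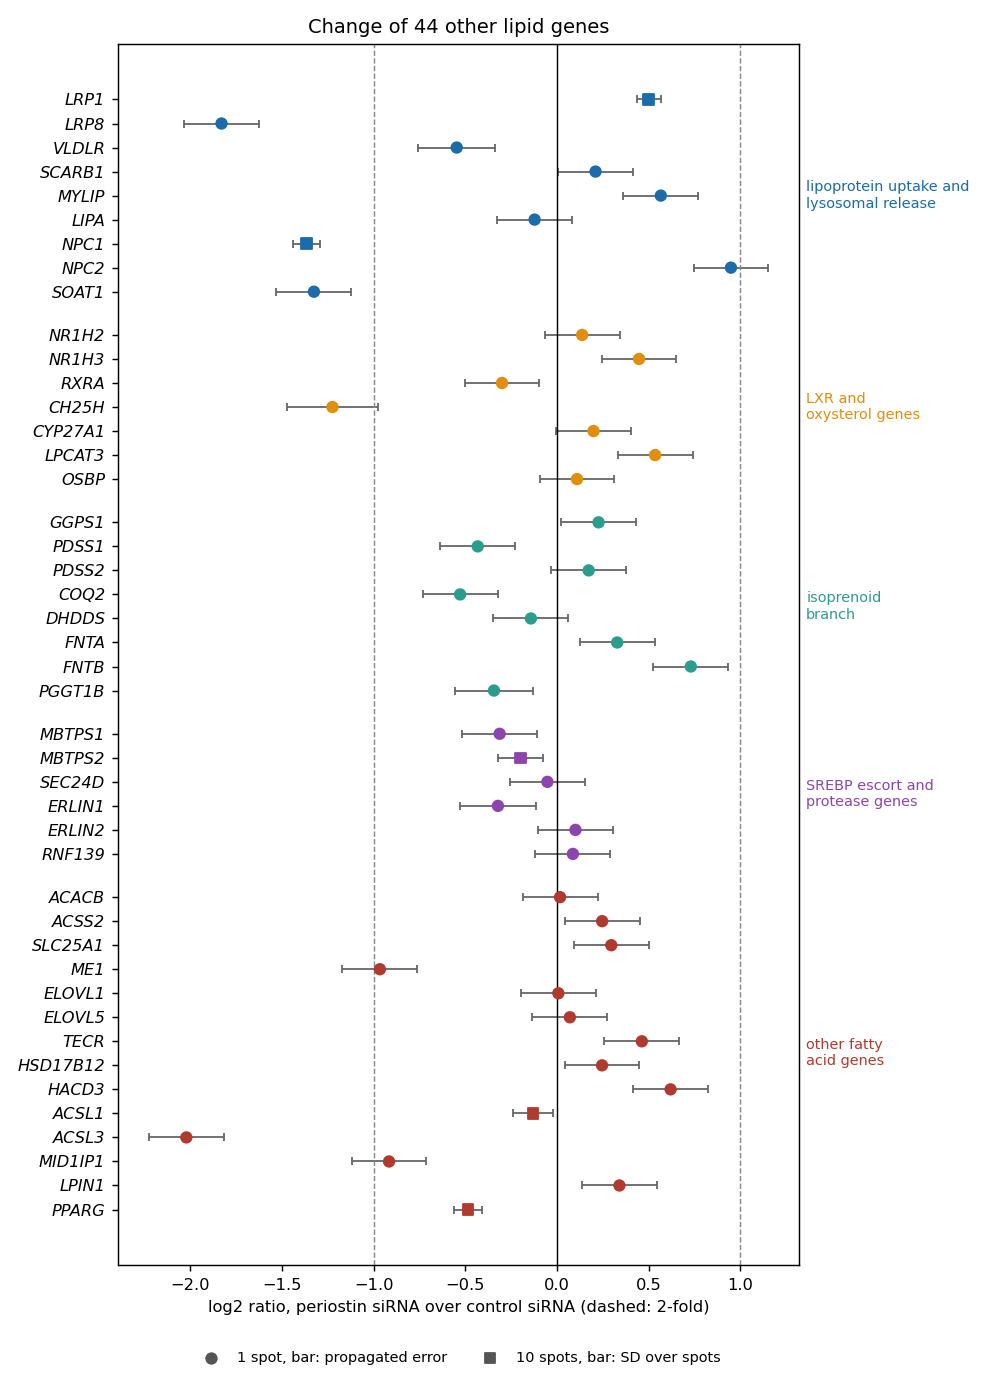
The log2 ratio (periostin siRNA over control siRNA) is plotted for 44 other lipid genes by list (circles are probes with 1 spot and their propagated error, squares are probes with 10 spots and the SD over spots, and dashed lines mark 2-fold). ACSL3, LRP8, NPC1, SOAT1 and CH25H lie below the lower dashed line and no gene lies above the upper one.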

How the data were processed

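Per the file headers, the scanned images of both arrays were quantified with Agilent Feature Extraction 11.5.1.1 (the submitters' processing notes list 12.0.3.1). The deposited intensity values are background-subtracted and detrended, without scaling between arrays. The array was annotated on hg19. Their deposited table of normalized intensity holds, for probes printed once, these same values multiplied by 3.65 (control siRNA) and 3.54 (periostin siRNA).

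Processed signals were put on the log2 scale after division by the 75th percentile of their array (372 and 383), taken over 58717 spots that are no controls. Spots of a probe were averaged, and the brightest probe by mean log2 signal stood for a gene. Where 1 array alone was well above background, the ratio was a bound against the dim probe's signal or, if higher, the array's lowest signal flagged as well above background. Genes were named through RefSeq (GRCh38.p14), which matched 65.1% of the spots. The members and lists were chosen with earlier results of these data known. All 33 members are named, and of the other lists the genes past 2-fold or the lowest and highest; a few others were named after their values were seen, and 1 gene of these lists is not reported here. Python 3.11.15, numpy 2.4.6, pandas 2.3.3, R 4.3.3 and limma 3.58.1 were used. The scaling and calls were run on simulated arrays with set changes in bright genes and uniform spot noise. No difference between cultures was simulated, so that run does not bear on such a difference. The alternatives were normexp with an offset of 50, other scalings, quantile normalization, loess with a span of 0.3, the deposited table, the mean over probes or over linear signals, filters on dim and flagged spots, and thresholds of 1.5-fold and 3-fold.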

Additional observations from a re-analysis of the deposited data

How the results depend on the processing

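No paired analysis was possible because RNA of 1 culture per siRNA was hybridized to 1 array, which also left no replicate to omit. INSIG1, SQLE and CYP51A1 were lower and TM7SF2 higher by more than 2-fold under each of 11 alternatives that kept the threshold, with log2 ratios between -2.66 and -2.36, -1.73 and -1.54, -1.52 and -1.35, and 1.32 and 1.49. Under scaling on the median, the ratio of the median gene moved by -0.13, which gave medians of -0.25 for the sterol synthesis enzymes and -0.59 for the fatty acid genes, and under it and loess FASN also passed 2-fold. At 3-fold 2 members were lower and 0 higher, beside 441 lower and 541 higher among 16052 measured genes. At 1.5-fold 6 members were lower and 2 higher, and all genes were not counted at that threshold, so these counts have no share to be weighed against. The normexp correction reduced the genes past 2-fold over the whole array from 1031 lower and 1279 higher to 540 and 530. The sign changed under some alternative for 6 of the 33 genes, MVK, FDPS, LSS, SREBF1, INSIG2 and ACACA, all within their spot error. Depth of signal limits the dim genes, SC5D and ABCG1 among the members and CH25H among the others.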
